A study of Mus musculus with 29 samples.

Results

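The genes described here are the receptors and ligands of the VEGF and angiopoietin systems, with endothelial nitric oxide synthase: Flt1, Kdr, Flt4, Vegfa, Vegfb, Tek, Tie1, Angpt1, Angpt2 and Nos3. They were chosen by symbol, with earlier results of these data known. All 10 were found among the 20411 genes of the count table and had enough counts to be tested. Hearts of wildtype BALB/c mice were sequenced as total RNA in 29 libraries, and the labels give every library a different animal. Every mouse had been given an adeno-associated virus (AAV) that expressed its cargo from Tbg, a hepatocyte-specific promoter, so the gene was delivered to the liver and the heart was the tissue measured. Its cargo was GFP, the green fluorescent control protein, in some mice and REV-ERBα, a repressing nuclear receptor of the circadian clock, in others. C26 colon tumour cells, which cause the wasting known as cachexia, were placed under the skin 10 days later, and PBS, a saline, was injected in the tumour-free mice. The groups were PBS_GFP (GFP vector, no tumour, n = 4), PBS_REVERBa (REV-ERBα vector, no tumour, n = 5), C26_GFP (GFP vector and tumour, n = 10) and C26_REVERBa (REV-ERBα vector and tumour, n = 10). No mouse went without a vector, the sources used here give no age, and the hepatocyte transgene was not measured in the liver here.

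VEGF-A is the main growth and survival signal of blood vessel endothelium, and it acts through the receptor tyrosine kinase VEGFR2, the product of Kdr. Flt1 encodes VEGFR1, which binds VEGF-A and VEGF-B tightly but signals weakly and is also made as a soluble decoy, and Flt4 encodes VEGFR3, the receptor of lymphatic growth factors. Angiopoietin 1 from perivascular and muscle cells activates the receptor TIE2, the product of Tek, and keeps vessels quiescent, whereas angiopoietin 2, stored and released by endothelium, mostly opposes it, and Tie1 encodes an orphan co-receptor of TIE2. Nos3 makes nitric oxide, a vasodilator produced on VEGF signalling. In the heart, cardiomyocytes supply much of the VEGF to a dense capillary bed that carries the receptors.

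Flt1 and Kdr, the receptors on which the results turn, lie on mouse chromosome 5. To show the regulatory sequence next to each, the 250 bases before the start site are given 5′ to 3′ from RefSeq, build GRCm38.p6, for Flt1 at chr5:147726012-147726261 and for Kdr at chr5:75978456-75978705, both on the minus strand. Capitals mark matches on either strand to the ETS core GGAAG, the GC box GGGCGG and the cyclic AMP element TGACGTCA.
Flt1: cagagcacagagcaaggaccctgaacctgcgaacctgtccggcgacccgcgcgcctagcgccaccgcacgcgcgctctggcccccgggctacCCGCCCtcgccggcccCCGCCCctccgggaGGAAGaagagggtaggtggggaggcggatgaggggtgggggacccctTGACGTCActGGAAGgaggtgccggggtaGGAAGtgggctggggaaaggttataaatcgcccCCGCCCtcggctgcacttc
Kdr: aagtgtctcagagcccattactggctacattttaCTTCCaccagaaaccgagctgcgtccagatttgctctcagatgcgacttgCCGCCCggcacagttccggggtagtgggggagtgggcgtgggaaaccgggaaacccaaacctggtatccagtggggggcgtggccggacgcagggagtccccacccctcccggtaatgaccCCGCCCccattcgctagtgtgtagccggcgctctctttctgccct
The Flt1 window held 3 ETS cores, 3 GC boxes and 1 cyclic AMP element, with 73 bases between that element and the start site. The Kdr window held 1 ETS core and 2 GC boxes. No matches overlapped in either window. Of 32851 RefSeq windows of the same length, 64.1% held GGAAG, 32.7% GGGCGG and 1.55% TGACGTCA. Neither window matched the STAT site TTCNNNGAA (7.02% of windows), the nuclear receptor core AGGTCA that REV-ERB can bind (14%), the hypoxia core ACGTG (16.6%) or the GATA site AGATAA (9.99%). RefSeq windows were matched for 7 of the 10 genes, the others being Angpt1, Angpt2 and Nos3. Among the 5 further windows, which are not printed, that of Tie1 held 6 ETS cores, that of Vegfb held 2 AGGTCA matches and 4 GC boxes, and that of Vegfa held 1 AGATAA match.

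The libraries held 3207497 to 16853646 counts. Above 10000000 counts lay 2 PBS_GFP and 3 C26_GFP libraries and none of the others. Fits without these libraries therefore drop 2 of the 4 PBS_GFP hearts. Endothelial identity was checked with 17 markers that are not among the 10 genes. None was at 0 in any library, and their summed level was 3058 to 3216 CPM (read counts scaled to a common library size) in PBS_GFP, 2966 to 3339 in PBS_REVERBa, 3000.3 to 4456 in C26_GFP and 2536 to 4195 in C26_REVERBa hearts. Cd36 alone had 694 to 2280 CPM over all libraries (median 1577), so that sum rests to a large part on 1 marker. Atrial markers stood high (mean above 5 log2 CPM) in 9 libraries, of which the groups held 1, 1, 3 and 4 in the order given above. Summed hepatocyte markers reached at most 86.7 CPM in PBS_GFP, 0.778 in PBS_REVERBa, 22.5 in C26_GFP and 87.0 in C26_REVERBa libraries, against group medians from 0.464 to 8.35 CPM.

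Per kilobase of counted transcript, the VEGF ligands Vegfb and Vegfa had the highest levels, and the angiopoietin ligands stood below the receptors Kdr, Flt1, Tie1 and Tek. The mean level over the 29 hearts was 234 ± 42.5 RPKM (CPM per kilobase, SD, n = 29) for Vegfb and 211 ± 35.1 RPKM for Vegfa. The main VEGF receptors followed, with Kdr at 45.9 ± 11.1 RPKM and Flt1 at 41.0 ± 7.79 RPKM. Tie1 at 26.1 ± 2.48 RPKM and Tek at 16.2 ± 1.82 RPKM came next. Nos3 stood at 10.9 ± 1.27 RPKM, Angpt1 at 10.4 ± 3.99 RPKM, Flt4 at 5.93 ± 0.765 RPKM and Angpt2 last at 0.931 ± 0.41 RPKM. The order between neighbours held in all 29 hearts for Vegfa over Kdr, Flt1 over Tie1, Tie1 over Tek, Tek over Nos3 and Flt4 over Angpt2, and in 26 for Angpt1 over Flt4. Over all hearts together, neighbours did not differ beyond their spread for Vegfb and Vegfa (19 of 29 hearts) and Nos3 and Angpt1 (17 of 29). Kdr lay above Flt1 in 16 of 29 hearts, a count that pools groups of different order. Kdr was above Flt1 in every tumour-free heart, whereas the order varied among tumour-bearing hearts, as described below. The coefficient of variation over all hearts was lowest for Tie1 at 9.51% and highest for Angpt2 at 44.1%.

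**Figure D1:**
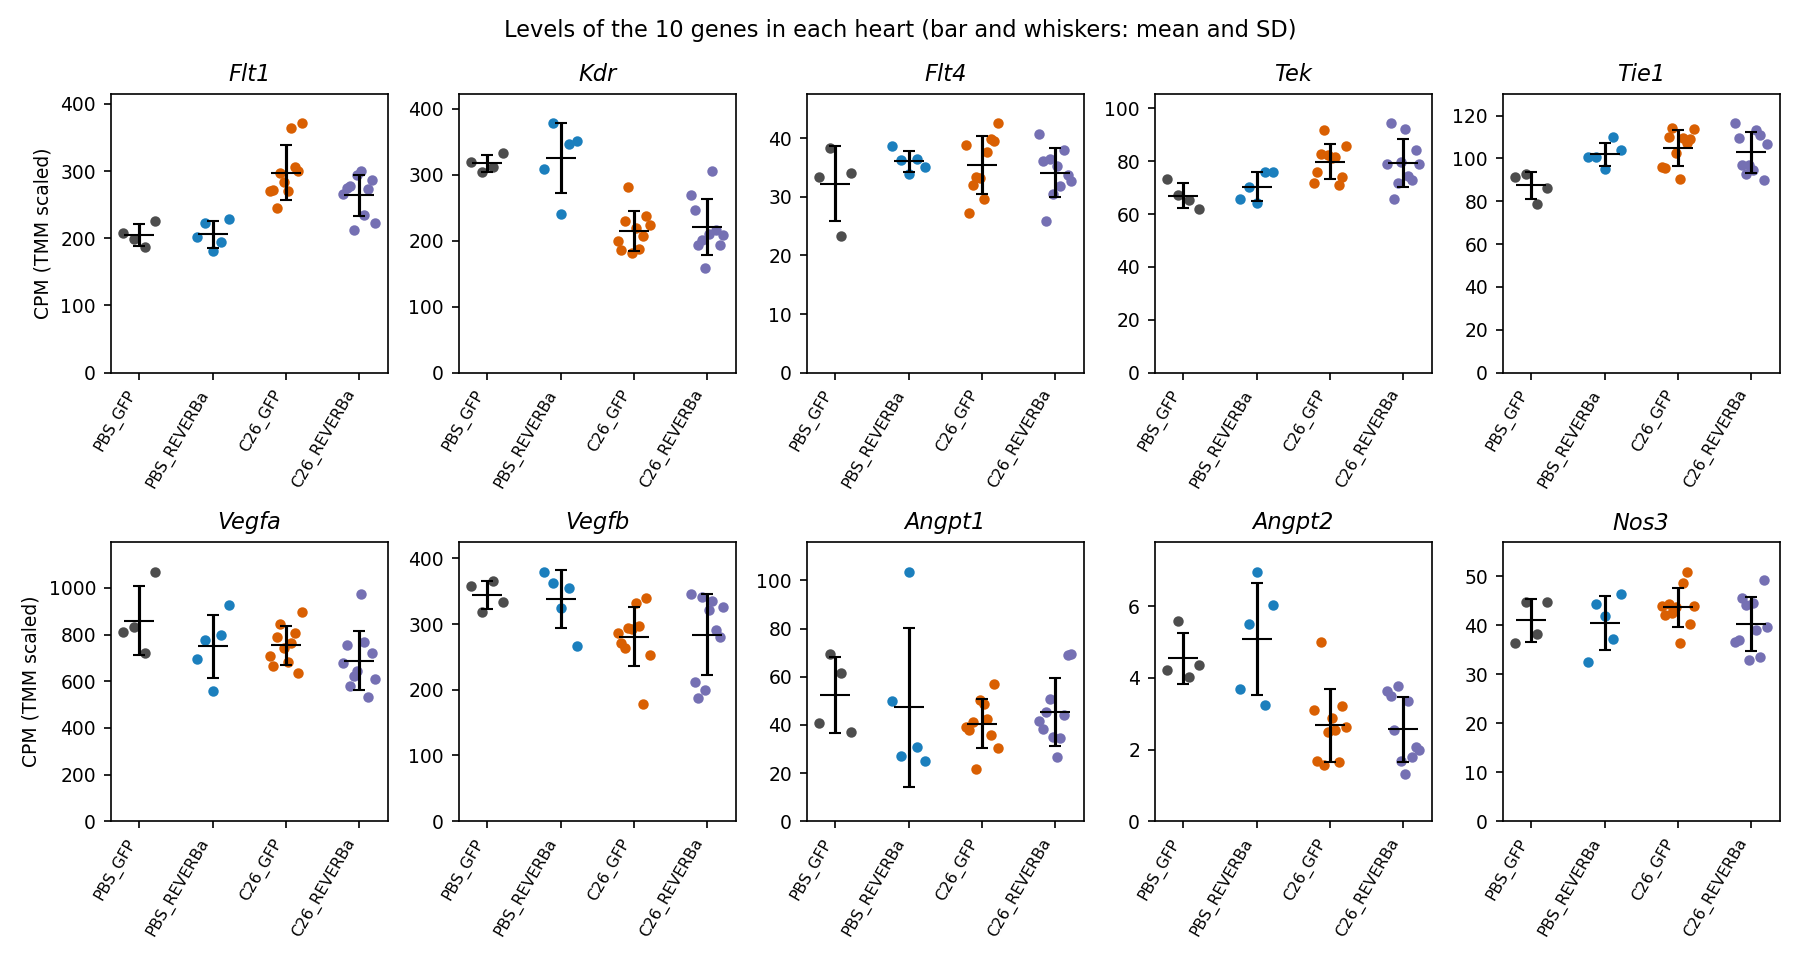
Level of each of the 10 genes in CPM (vertical axis, linear and starting at 0) in every heart, by group, with the group mean and SD as bar and whiskers. Flt1 lies higher and Kdr lower in the C26_GFP hearts than in every PBS_GFP heart, and Angpt2 is the scarcest of the 10.

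Under the GFP vector, hearts with and without a C26 tumour were compared first, to see how the tumour alters these genes. Of the 10 genes, 3 rose (Flt1, Tie1 and Tek), 2 fell (Kdr and Angpt2) and 5 did not pass. Among all 12928 genes tested 28.2% passed (14.2% higher and 14% lower), so that a share of 5 in 10 stands in a comparison where many genes moved. The median log2 change was -0.05 over the 10 genes and near 0 over all genes. Changes are log2 values with their standard error (SE) from edgeR's quasi-likelihood test, with p adjusted by the Benjamini-Hochberg method across every gene in that test.

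Kdr, the main signalling receptor for VEGF-A (NM_010612, chromosome 5, 75933270 to 75978428, minus strand, mm10), had 319, 304, 312 and 333 CPM in the PBS_GFP hearts. In C26_GFP hearts it ranged from 182 through a median of 213 to 282 CPM. All 10 tumour-bearing hearts lay below all 4 without a tumour, so the groups did not overlap. The share of all genes whose groups separate in this way was not counted, here or for the genes below. The means were 317 ± 12.2 CPM (SD, n = 4) and 215 ± 30.4 CPM (SD, n = 10). Kdr fell by 0.56 ± 0.12 on the log2 scale, a level 0.680 times that of PBS_GFP (edgeR adjusted p = 0.0011). In bulk tissue, fewer endothelial cells and less of a transcript in each cell cannot be told apart.

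Flt1, the high-affinity VEGF-A and VEGF-B receptor (NM_010228, chromosome 5, 147562196 to 147725988, minus strand, mm10), moved the other way. It had 208, 199, 187 and 225 CPM in the PBS_GFP hearts and from 245 through a median of 290.1 to 371 CPM in C26_GFP hearts. Again the groups did not overlap, and C26_GFP replicates 7 and 10 were the highest, at 364 and 371 CPM. The means were 205 ± 16.1 CPM (SD, n = 4) and 298 ± 40.9 CPM (SD, n = 10). Flt1 rose by 0.54 ± 0.10, which is 1.45-fold (edgeR adjusted p = 0.000199). The counts are per gene, so full-length and soluble Flt1 transcripts are not separated.

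The ratio of Kdr to Flt1 per length turned over. It was 1.77, 1.76, 1.93 and 1.704 in the PBS_GFP hearts and averaged 0.832 in C26_GFP hearts, from 0.591 to 1.09. Kdr thus exceeded Flt1 in every tumour-free heart of this comparison, and the highest tumour-bearing heart stayed below the lowest tumour-free one. The difference was -1.10 on the log2 scale (exact two-sided permutation test, p = 0.000999, the smallest that 1001 splits can give, and 0.00999 adjusted over 40 ratio tests).

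**Figure D2:**
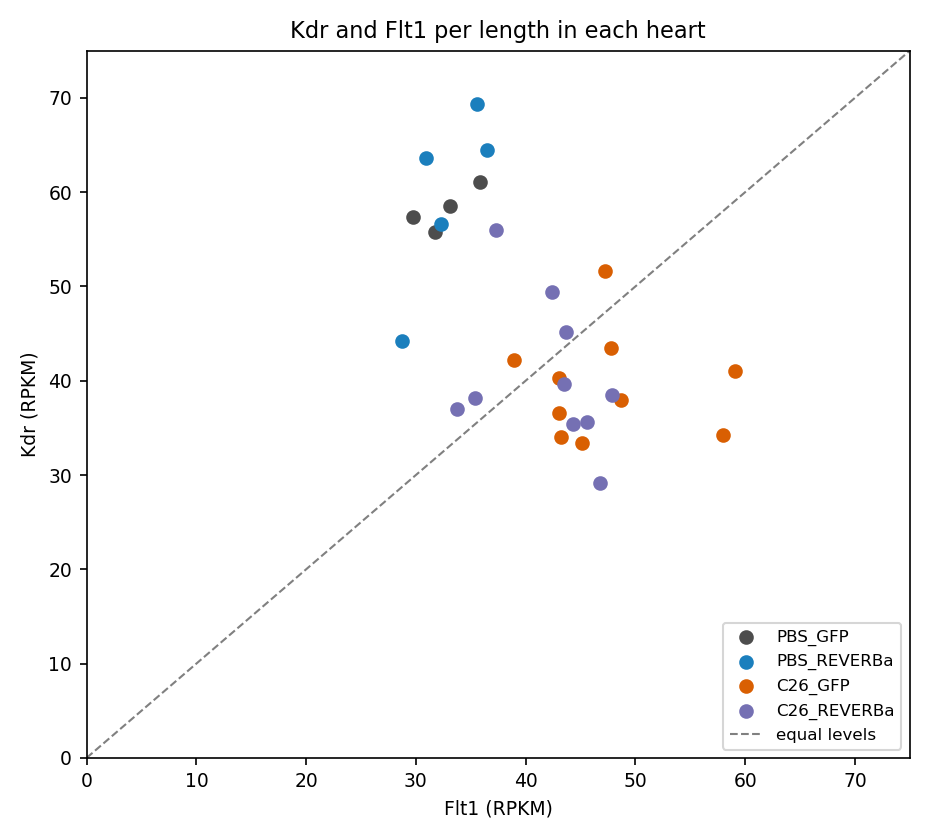
Kdr (vertical) against Flt1 (horizontal), both in RPKM on linear axes from 0, 1 point per heart coloured by group, with the line of equal levels dashed. The 9 tumour-free hearts lie above the line at Kdr to Flt1 ratios of 1.54 to 2.06, and the 20 tumour-bearing hearts lie at 0.591 to 1.501.

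The angiopoietin receptors rose slightly. Tie1 (NM_011587, chromosome 4, 118471191 to 118489849, minus strand, mm10) had 91.3, 93.0, 78.9 and 86.3 CPM in PBS_GFP hearts and from 90.3 through 108 to 114 CPM in C26_GFP hearts. Only the lowest C26_GFP heart lay within the PBS_GFP range. Tie1 rose by 0.26 ± 0.07 (edgeR adjusted p = 0.00739). Its mean was 87.4 CPM in PBS_GFP and 105 CPM in C26_GFP hearts, but also 102 CPM in PBS_REVERBa and 103 CPM in C26_REVERBa hearts. PBS_GFP was thus the low group of the 4, and the tumour-free PBS_REVERBa hearts stood near the tumour-bearing ones. Tek, which encodes TIE2 (NM_013690, chromosome 4, 94739289 to 94874976, plus strand, mm10), had 73.2, 67.0, 65.4 and 61.9 CPM in PBS_GFP and from 71.0 through 81.5 to 91.9 CPM in C26_GFP hearts. For Tek 8 of 10 tumour-bearing hearts lay above every PBS_GFP heart. It rose by 0.25 ± 0.08 (edgeR adjusted p = 0.0181), but did not pass without PBS_GFP replicate 3 or 4 (edgeR adjusted p = 0.0522 and 0.0734), without the libraries above 10000000 counts (0.0896) or without those of high atrial markers (0.0804). The ratio of Tek to Tie1 per length was 0.632 in PBS_GFP and 0.628 in C26_GFP hearts, a difference of -0.01 on the log2 scale (exact two-sided permutation p = 0.924).

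Angpt2, the context-dependent antagonist of TIE2 (NM_007426, chromosome 8, 18690263 to 18741562, minus strand, mm10), was scarce, with 6 to 61 counts per library. It had 4.23, 5.58, 4.02 and 4.36 CPM in PBS_GFP hearts and from 1.56 through 2.59 to 5.01 CPM in C26_GFP hearts. In 9 of 10 tumour-bearing hearts it lay below every PBS_GFP heart, and C26_GFP replicate 3 was the exception. Angpt2 fell by 0.78 ± 0.26 (edgeR adjusted p = 0.0237). Without PBS_GFP replicate 2 it did not pass (-0.65, edgeR adjusted p = 0.123), nor without the libraries above 10000000 counts (-0.53, edgeR adjusted p = 0.412) or with every library thinned to the smallest total (-0.36, edgeR adjusted p = 0.598).

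The ligands with high levels did not pass. Vegfb, a ligand of VEGFR1 that cardiac muscle makes in quantity (NM_011697, chromosome 19, 6982472 to 6987651, minus strand, mm10), had 358, 319, 365 and 333 CPM in PBS_GFP hearts. In C26_GFP hearts it ranged from 179 through 289 to 339 CPM, and 8 of 10 of these lay below every PBS_GFP heart. Its change was -0.29 ± 0.14 (edgeR adjusted p = 0.131). Vegfa (NM_001025250, chromosome 17, 46016993 to 46032377, minus strand, mm10) had 813, 833, 723 and 1069 CPM in PBS_GFP and from 634 through 753 to 898 CPM in C26_GFP hearts. The groups overlapped widely for Vegfa, with 4 of 10 tumour-bearing hearts below every PBS_GFP heart, and its change was -0.19 ± 0.13 (edgeR adjusted p = 0.273, 95% interval -0.43 to 0.06).

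Angpt1, the activating ligand of TIE2 (NM_001286062, chromosome 15, 42424667 to 42676977, minus strand, mm10), varied more within groups than between them. It had 40.7, 69.6, 61.7 and 37.2 CPM in PBS_GFP and from 21.6 through 40.0 to 57.0 CPM in C26_GFP hearts, a change of -0.38 ± 0.28 (edgeR adjusted p = 0.328). Over the 29 hearts its log2 level had a Pearson r of 0.65 with the atrial marker score, given as a description. In the 9 hearts of high atrial markers it ranged from 35.1 to 104 CPM with a median of 57.0, and in the other 20 from 21.6 to 61.7 CPM with a median of 38.2. The part of atrial tissue in its level was not tested. Exons of Angpt1 share 737 bases with the antisense gene Gm17473, and no source used here states the strand setting of the counting, so its values are uncertain.

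Flt4 (NM_008029, chromosome 11, 49609679 to 49652739, plus strand, mm10) had 33.3, 38.3, 23.2 and 34.02 CPM in PBS_GFP and from 27.3 through 35.5 to 42.5 CPM in C26_GFP hearts, a change of 0.11 ± 0.11 (edgeR adjusted p = 0.499). Of 5 tested lymphatic markers 3 rose in the same comparison (Lyve1, Pdpn and Reln), against 14.2% of all genes higher. The summed levels of the 5 were 125 to 157 CPM in PBS_GFP and 156 to 225 CPM in C26_GFP hearts. Pdpn and Reln were low, with medians of 7.10 and 9.05 CPM over all libraries. Nos3 (NM_008713, chromosome 5, 24364819 to 24384474, plus strand, mm10) had 36.4, 44.8, 38.2 and 44.8 CPM in PBS_GFP and from 36.3 through 43.8 to 50.9 CPM in C26_GFP hearts. Its change was 0.09 ± 0.10 (edgeR adjusted p = 0.538, 95% interval -0.11 to 0.28). Both genes overlapped between the groups. Exons of Nos3 share 294 bases with Atg9b and 1040 with Gm15587 on the opposite strand, so its counts are uncertain in the same way as those of Angpt1.

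Some endothelial markers also rose with the tumour. Of the 17 markers 6 passed as higher (Vwf, Ramp2, Gpihbp1, Cd36, Esam and Ecscr) and none as lower, with a median log2 change of 0.24, against 14.2% of all genes higher. Without PBS_GFP replicate 1, 2 or 3 the number was 3, 2 and 3, and without the libraries above 10000000 counts it was 2. For that reason each receptor was also set against the mean log2 level of those 17 markers in the same heart. Relative to them Kdr stood 0.77 lower in C26_GFP than in PBS_GFP hearts, with no overlap (exact two-sided permutation p = 0.000999, 0.00999 adjusted over 40 tests). Flt1 stood 0.33 higher, with overlapping groups (exact two-sided permutation p = 0.005, 0.04 adjusted), but did not pass without the libraries above 10000000 counts (0.32, exact two-sided permutation p = 0.0833). That setting drops 2 of the 4 PBS_GFP hearts, and the difference itself hardly changed. Tek and Tie1 stood 0.05 and 0.06 higher, Flt4 0.06 lower and Nos3 0.11 lower, and none of these passed (exact two-sided permutation p = 0.605, 0.289, 0.675 and 0.0689). With that score as a covariate in the model, Kdr still passed (edgeR adjusted p = 0.0225) and Flt1 missed the threshold (0.38, edgeR adjusted p = 0.0512). Tek (0.20, edgeR adjusted p = 0.249), Tie1 (0.09, edgeR adjusted p = 0.56) and Angpt2 (-0.48, edgeR adjusted p = 0.444) did not pass either.

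**Figure D3:**
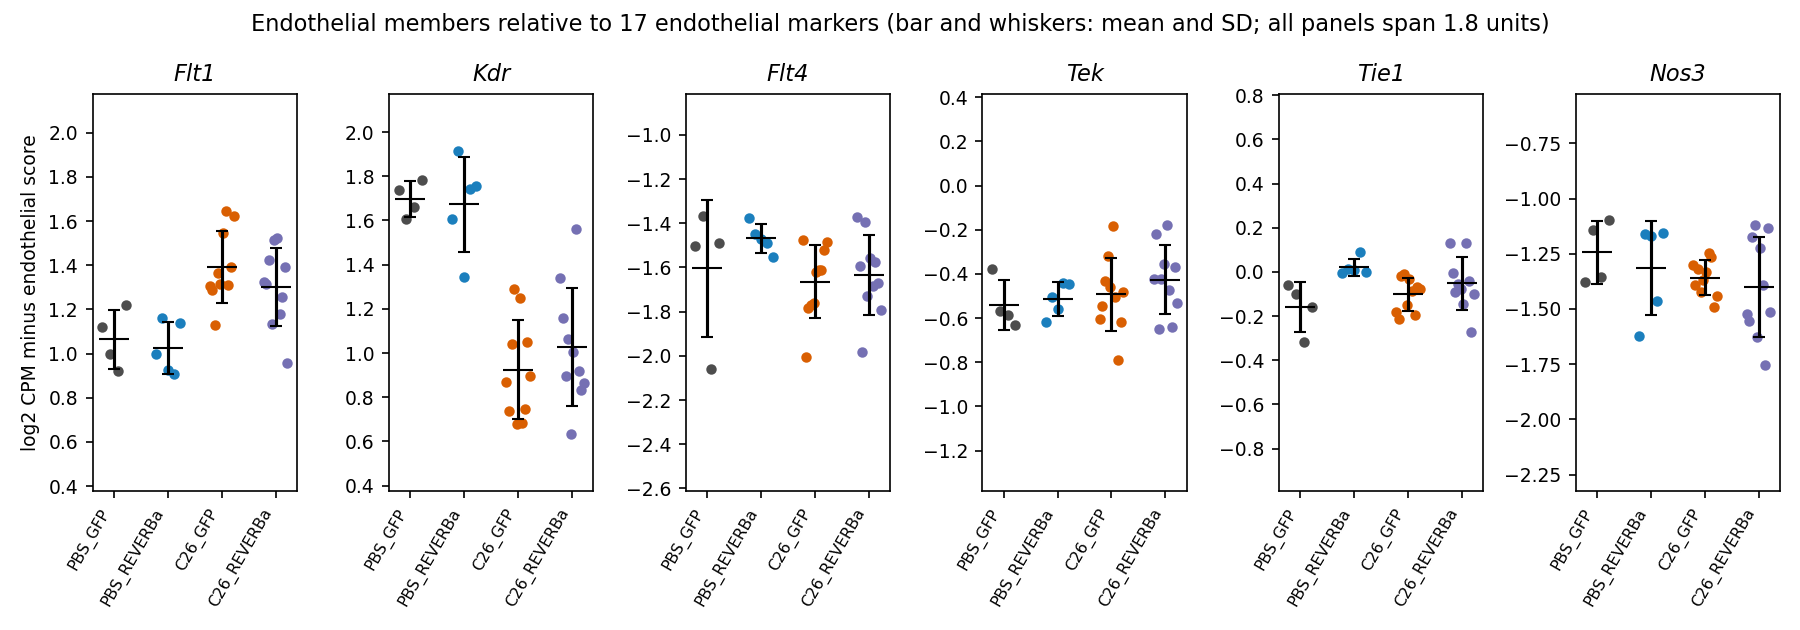
The 5 receptor genes and Nos3 set against 17 endothelial markers, as log2 CPM of each gene minus the mean log2 level of the markers (vertical axis, same span in each panel) in every heart, by group, with mean and SD. Kdr is 0.77 lower in C26_GFP than in PBS_GFP hearts without overlap, whereas Tek and Tie1 differ by 0.05 and 0.06.

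Markers of other cells were counted in that comparison as well, against 14.2% of all genes higher and 14% lower. Pericyte markers, of cells that supply Angpt1, fell in 2 of 8 cases and rose in none, with summed levels of 1543 to 1668 CPM in PBS_GFP and 1056 to 1653 CPM in C26_GFP hearts. Cardiomyocyte markers, of cells that supply Vegfa and Vegfb, fell in 6 of 9 cases and rose in 1, with sums of 57360 to 61288 and 43611 to 56704 CPM. Macrophage markers rose in 5 of 8 cases, with sums of 261 to 315 and 340 to 498 CPM. Of the remaining lists, fibroblast markers rose in 2 of 7 cases, endocardial in 1 of 4 and smooth muscle fell in 1 of 5, and hepatocyte markers fell in 2 of 3. Summed hepatocyte markers had a median of 1.30 CPM in PBS_GFP and 1.32 CPM in C26_GFP hearts, with highest values of 86.7 and 22.5 CPM. Their fall thus did not show in the medians of these scarce transcripts. No atrial, platelet, neutrophil, adipocyte or mesothelial marker passed, of 4, 5, 2, 3 and 3 tested. The part of these cells in the levels of the 10 genes was not tested.

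The second comparison asked whether the hepatocyte REV-ERBα vector alters these genes in tumour-bearing hearts. None of the 10 passed by edgeR, DESeq2 or limma voom, where 7.2% of all genes did by edgeR (3.75% higher and 3.45% lower). That background of 931 genes ranged from 295 to 1778 when 1 library was left out. Flt1 alone of the 10 had an unadjusted p under 0.05, with 245 through 290.1 to 371 CPM in C26_GFP and 212 through 274 to 301 CPM in C26_REVERBa hearts. The groups overlapped, 3 of 10 C26_REVERBa hearts lay below every C26_GFP heart, and the change was -0.17 ± 0.07 (edgeR adjusted p = 0.139).

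Kdr ranged from 159 through 209 to 305 CPM in C26_REVERBa hearts, which spans the C26_GFP range. Its change was 0.03 ± 0.09 with a 95% interval from -0.15 to 0.22, an interval that does not reach the size of its fall with the tumour. The Kdr to Flt1 ratio was 0.952 on average in C26_REVERBa and 0.832 in C26_GFP hearts, a log2 difference of 0.19 (exact two-sided permutation p = 0.198). Vegfa stood at 688 ± 126 CPM in C26_REVERBa and 754 ± 83.8 CPM in C26_GFP hearts (SD over 10 hearts in each group), and its change was -0.13 ± 0.10 (edgeR adjusted p = 0.412). The other changes lay between -0.11 for Nos3 and 0.17 for Angpt1. For Angpt2 (-0.03, 95% interval -0.45 to 0.39) and Angpt1 (95% interval -0.24 to 0.59) the intervals were wide. Of the 17 endothelial markers none passed here. Of the 5 lymphatic markers 2 passed as lower and none as higher, against 3.45% of all genes lower.

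**Figure D4:**
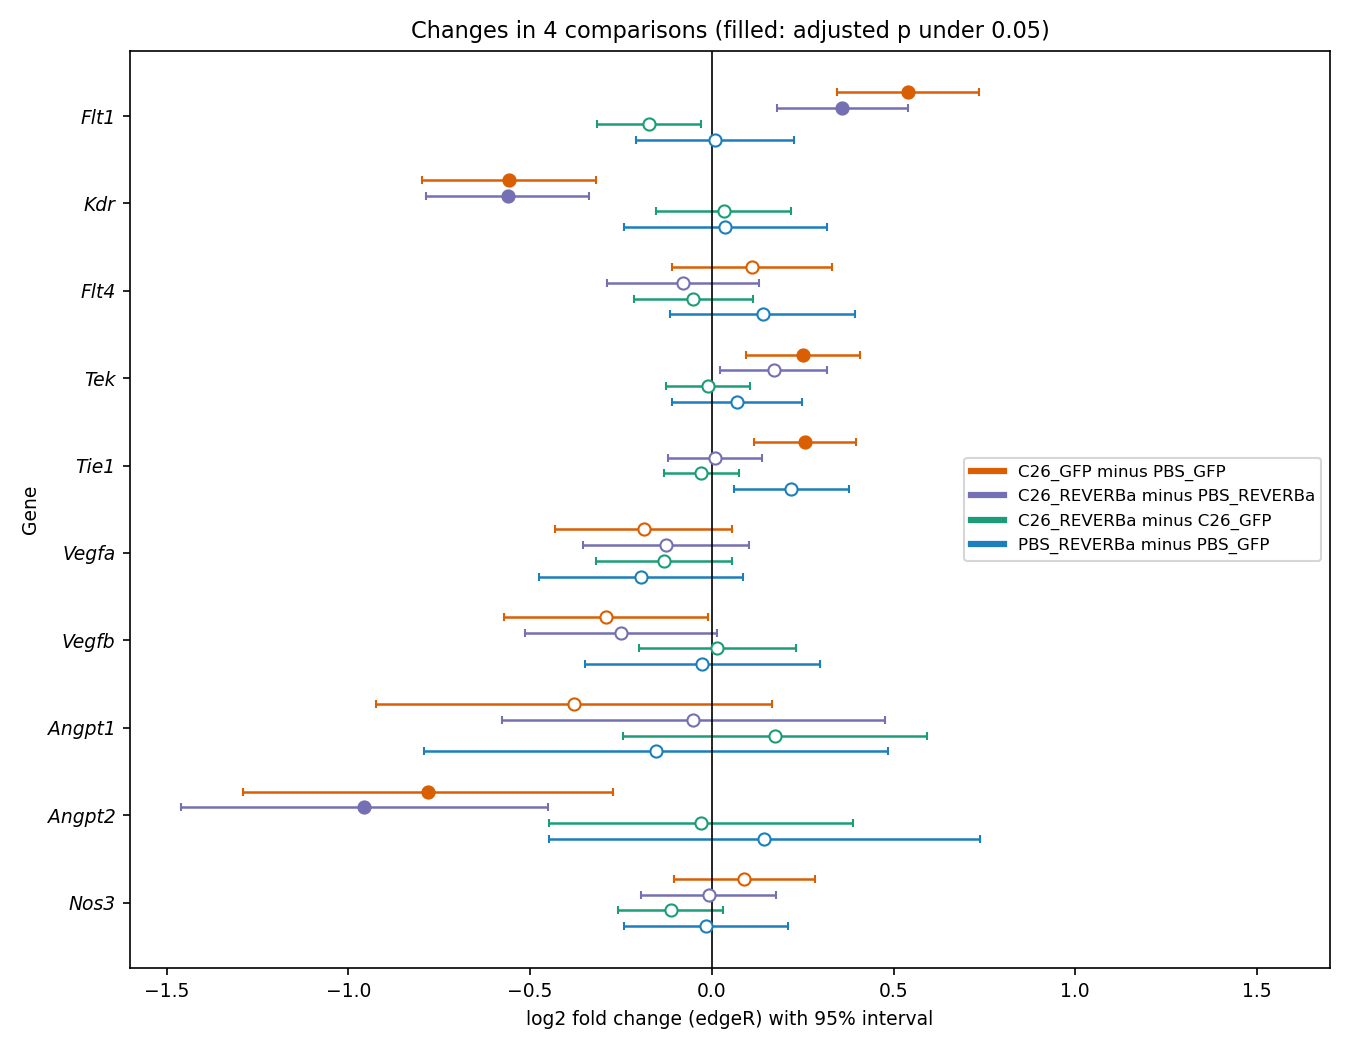
Log2 fold changes from edgeR (horizontal axis) with 95% intervals for the 10 genes in 4 comparisons, each in its own colour, with filled points where the adjusted p is under 0.05. Flt1 is higher and Kdr and Angpt2 are lower with the tumour under both vectors, and no point of the vector comparisons is filled.

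The third comparison took the tumour effect in mice given the REV-ERBα vector, with its own tumour-free controls. Of the 10 genes, 1 rose (Flt1), 2 fell (Kdr and Angpt2) and 7 did not pass, where 7.23% of all genes passed (4.05% higher and 3.19% lower), or 935 genes. Without PBS_REVERBa replicate 2 or 5 the number was 521 and 476. Kdr had 308, 378, 241, 347 and 352 CPM in PBS_REVERBa hearts and from 159 through 209 to 305 CPM in C26_REVERBa hearts. The lowest tumour-free heart, replicate 3, overlapped 3 tumour-bearing ones, and the other 7 lay below all. Kdr fell by 0.56 ± 0.11 (edgeR adjusted p = 0.0029).

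Flt1 had 203, 223, 180, 194 and 229 CPM in PBS_REVERBa and from 212 through 274 to 301 CPM in C26_REVERBa hearts. It lay above every PBS_REVERBa heart in 8 of 10 tumour-bearing hearts and rose by 0.36 ± 0.09 (edgeR adjusted p = 0.0163). Angpt2 had 3.68, 5.51, 6.96, 3.26 and 6.03 CPM in PBS_REVERBa and from 1.32 through 2.32 to 3.76 CPM in C26_REVERBa hearts, with 6 of 10 below every PBS_REVERBa heart. It fell by 0.96 ± 0.26 (edgeR adjusted p = 0.0228). Without PBS_REVERBa replicate 3, which had the lowest Kdr and Flt1 and the highest Angpt1 (104 CPM) and Angpt2 of its group and high atrial markers, Kdr alone of the 10 passed. Flt1 then had an edgeR adjusted p of 0.0534 and Angpt2 of 0.081. Angpt2 also missed the threshold without replicate 2 (edgeR adjusted p = 0.0551) or 5 (0.0805) of that group, and without all libraries of high atrial markers (0.15).

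The ratio of Kdr to Flt1 was 1.75, 1.95, 1.54, 2.06 and 1.77 in PBS_REVERBa hearts and 0.624 to 1.501 in C26_REVERBa hearts. These did not overlap, and the log2 difference was -0.92 (exact two-sided permutation p = 0.000333, the smallest that 3003 splits can give, and 0.00999 adjusted over 40 tests). Against the endothelial markers Kdr stood 0.65 lower (exact two-sided permutation p = 0.000666, 0.00999 adjusted) and Flt1 0.28 higher (p = 0.00966 by the same exact test, 0.0552 adjusted). Of the 17 endothelial markers 1 fell (Rasip1, -0.26, edgeR adjusted p = 0.0474) and none rose in this comparison, with a median of 0.12. With their score as a covariate Kdr passed (edgeR adjusted p = 0.00461) and Flt1 did not (edgeR adjusted p = 0.0579).

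Tek and Tie1 did not pass under the REV-ERBα vector. Tek had 65.7, 70.1, 64.1, 75.9 and 76.0 CPM in PBS_REVERBa and from 65.7 through 78.9 to 94.3 CPM in C26_REVERBa hearts, a change of 0.17 ± 0.08 (edgeR adjusted p = 0.16). Tie1 had 101, 101, 95.2, 109.8 and 104 CPM in PBS_REVERBa and from 89.8 through 102 to 116 CPM in C26_REVERBa hearts, a change of 0.01 ± 0.07 (edgeR adjusted p = 0.955). Vegfb stood at -0.25 ± 0.13 (edgeR adjusted p = 0.26), with 379, 363, 325, 355 and 267 CPM in PBS_REVERBa and from 188 through 305 to 346 CPM in C26_REVERBa hearts. The C26_REVERBa hearts held 3 low Vegfb values, of 188, 199 and 212 CPM, and 7 from 281 to 346 CPM. Vegfa, Flt4, Angpt1 and Nos3 changed by values from -0.13 to -0.01, none of which passed.

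Whether the tumour effect differed with the vector was tested as an interaction. None of the 10 genes passed, and none of the 12928 tested did (0% called by edgeR, with 1357 genes at an unadjusted p under 0.05, 9 called by DESeq2 and 4 by limma voom). The interaction was -0.003 ± 0.17 for Kdr (95% interval -0.34 to 0.33) and -0.18 ± 0.13 for Flt1 (95% interval -0.44 to 0.08). The smallest p among the 10 was that of Tie1, -0.25 ± 0.10 (p = 0.0157, edgeR adjusted p = 0.382). The rise of Tek and Tie1 under the GFP vector was therefore not shown to differ from their values under the REV-ERBα vector.

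The vector comparison without a tumour also called none of the 10 genes, and 0% of all genes by edgeR, with 530 at an unadjusted p under 0.05 and 1 gene each called by DESeq2 and limma voom. Tie1 alone had an unadjusted p under 0.05. All 5 PBS_REVERBa hearts (95.2 to 109.8 CPM) lay above all 4 PBS_GFP hearts (78.9 to 93.0 CPM), a change of 0.22 ± 0.08 (p = 0.0113, edgeR adjusted p = 1). How many of all genes separate in the same way was not counted. Against the endothelial markers Tie1 stood 0.18 higher, again without overlap (exact two-sided permutation p = 0.00794, the smallest that 126 splits can give, and 0.0529 adjusted over 40 tests). The remaining changes lay between -0.19 for Vegfa and 0.15 for Angpt2.

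How the 10 genes varied together was described over the 29 hearts, which share groups and libraries, so no p is given. Flt1 and Kdr had a Pearson r of -0.61 over all hearts and of -0.02 once each group's mean was taken away, so that their opposition lay between groups rather than among hearts of a group. Within groups the strongest relations were negative between Vegfa and Angpt1 (r = -0.71) and positive between Kdr and Tie1 (r = 0.59) and between Vegfa and Tek (r = 0.58). Over all hearts Vegfa had an r of -0.31 and Angpt1 of 0.65 with the atrial marker score, and every group held hearts of high atrial markers. The part of atrial tissue in the relation of Vegfa and Angpt1 was not tested. Tek also had an r of 0.52 with log library size, and the large libraries were all of GFP groups.

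Likeness to other genes was taken over all hearts with group means left in, so shifts between groups enter these r. Among 10513 genes of at least 5 CPM, those most like Flt1 were Lpl, the lipase of triglyceride uptake (r = 0.94), St3gal1 (0.93) and Il4ra, the interleukin-4 receptor chain (0.93). Those most like Kdr were the ETS factor gene Ets1 (0.92), the VEGF co-receptor gene Nrp2 (0.91) and Rhoq (0.90). Vegfb was most like Ccdc85c (0.92), Mtch1 (0.91) and Btbd1 (0.89), and Vegfa like the natriuretic peptide gene Nppb (0.81), Ankrd23 (0.80) and Slain2 (0.79). Angpt1 was most like the calcium channel subunit gene Cacna2d2 (0.81), Sort1 (0.78) and Kcnj3, a potassium channel gene known from atria (0.76). Angpt2 was nearest to Vwa1 (0.83), Ywhah (0.79) and Cnn2 (0.78), Tie1 to Med12 (0.81), C87436 and Serinc4 (0.70 each), and Tek to Stag1, Dhx29 (0.76 each) and Ankrd33b (0.75). Flt4 was nearest to Elmo1 (0.72), Usp35 (0.66) and Myo1c (0.62), and Nos3 to Cish, Acvrl1 and Dgat1 (0.70 each).

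The other genes of the pathway were taken from 6 lists, and 2 comparisons are given for them, the tumour effect under the GFP vector and the vector effect with a tumour, which share the C26_GFP hearts. The lists were chosen with earlier results of these data known, so their counts are descriptions and no test of enrichment. Every list count stands beside the shares over all genes, 14.2% higher and 14% lower with the tumour. With the vector these shares were 3.75% and 3.45%. Among 14 tested further ligands and co-receptors, 3 rose and 4 fell with the tumour (median -0.10). Nrp2, a co-receptor of VEGF receptors, had 115 to 149 CPM in PBS_GFP and 74.8 to 94.4 CPM in C26_GFP hearts and fell by 0.71 ± 0.10 (edgeR adjusted p = 1.13e-05). Plxnd1, an endothelial semaphorin receptor, fell by 0.91 ± 0.13 (edgeR adjusted p = 1.64e-05). Sema3f, a secreted ligand of Nrp2, rose by 0.70 ± 0.13 (edgeR adjusted p = 0.000184). The third rise, beside Sema3f and Itga5, was that of Pgf, placental growth factor and a ligand of VEGFR1, by 0.71 (edgeR adjusted p = 0.0018), named here after its value was seen. Nrp1 fell by 0.26 ± 0.08 (edgeR adjusted p = 0.0173), a call lost without PBS_GFP replicate 1 or 3 (edgeR adjusted p = 0.0729 and 0.0818). Of the same 14 genes 1 rose and 1 fell with the vector in tumour-bearing hearts. The fibronectin receptor subunit gene Itga5 was 0.58 ± 0.17 higher with the tumour and 0.54 ± 0.12 lower with the vector (edgeR adjusted p = 0.00998 and 0.0142), and Nrp1 was 0.23 ± 0.06 higher with the vector (edgeR adjusted p = 0.0268). That call of Nrp1 was lost without C26_GFP replicate 1 or 10 or C26_REVERBa replicate 1 or 7 (edgeR adjusted p = 0.052, 0.0604, 0.0551 and 0.0627).

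Of 20 tested genes of signalling downstream of these receptors, 3 rose and 3 fell with the tumour (median -0.05). This is near the shares over all genes, 14.2% higher and 14% lower. Plcg1, the phospholipase that VEGFR2 activates, rose by 0.30 ± 0.06 (edgeR adjusted p = 0.00056), and Prkca, the protein kinase C it leads to, fell by 0.59 ± 0.08 (edgeR adjusted p = 9.41e-06). Pxn, the focal adhesion adaptor paxillin, rose by 0.45 ± 0.08 (edgeR adjusted p = 0.000196). With the vector in tumour-bearing hearts, where 7.2% of all genes passed, Prkca alone of the 20 did, 0.29 ± 0.06 higher (edgeR adjusted p = 0.0123). Akt1 had -0.18 ± 0.06 there (edgeR adjusted p = 0.0636).

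Of 15 tested genes of nitric oxide production and response, 6 fell and none rose with the tumour (median -0.15), against 14% of all genes lower and 14.2% higher. Ddah1, which degrades the nitric oxide synthase inhibitor dimethylarginine, had 23.0 to 27.6 CPM in PBS_GFP and 5.03 to 13.8 CPM in C26_GFP hearts and fell by 1.55 ± 0.21 (edgeR adjusted p = 7.7e-06). Nostrin, a trafficking partner of the synthase, fell by 0.89 ± 0.26 (edgeR adjusted p = 0.0104) and the chaperone gene Hsp90aa1 by 0.52 ± 0.15 (edgeR adjusted p = 0.00822). Nostrin did not pass when libraries were thinned (edgeR adjusted p = 0.191), nor Hsp90aa1 without the libraries above 10000000 counts (0.103). Cav1, the caveolar protein gene, and Zdhhc21 fell by 0.21 and 0.26 (edgeR adjusted p = 0.0469 and 0.0451), and both are named after their values were seen. Without the libraries above 10000000 counts 2 of the 15 fell. Without PBS_GFP replicate 1, 3 or 4, C26_GFP replicate 4 or C26_REVERBa replicate 2, 3, 7 or 10 it was 3. Ddah1 was the 1 gene of the list that passed with the vector in tumour-bearing hearts, where 7.2% of all genes did. It stood 0.77 ± 0.18 higher at 14.9 ± 5.04 CPM (SD, n = 10, edgeR adjusted p = 0.0143). Gch1, which makes the cofactor of the synthase, had -0.24 ± 0.09 there (edgeR adjusted p = 0.1).

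Of 15 Notch and tip cell genes, 6 fell and 1 rose with the tumour (median -0.26), and 3 rose with the vector. Among all genes 14% fell and 14.2% rose with the tumour, and 3.75% rose with the vector. Apln and Aplnr are among both the 6 falls and the 3 rises, in a list chosen with earlier results known. Beside the ligand Apln and its receptor gene Aplnr, which fell by 3.23 ± 0.42 and 2.24 ± 0.34 (edgeR adjusted p = 3.42e-06 and 2.2e-05), the chemokine receptor gene Cxcr4 fell by 0.98 ± 0.19 (edgeR adjusted p = 0.000447). The others that fell, named after their values were seen, were Nrarp, Esm1 and Unc5b, by 0.88, 0.92 and 0.64 (edgeR adjusted p = 0.00241, 0.0306 and 0.000708). The 1 rise, of the Notch ligand gene Jag1 (0.35, edgeR adjusted p = 0.0229), likewise named after its value was seen, was lost without PBS_GFP replicate 1 or 3. Cxcr4 was 0.52 ± 0.16 higher with the vector (edgeR adjusted p = 0.0394), a call that 11 of 29 fits without 1 library lost. Apln and Aplnr were 1.62 ± 0.38 and 1.23 ± 0.28 higher with it (edgeR adjusted p = 0.0147 and 0.0143).

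Of 17 hypoxia response genes, 7 rose and 2 fell with the tumour (median 0.21), and 1 rose and 1 fell with the vector. Among all genes 14.2% rose and 14% fell with the tumour, and 3.75% and 3.45% with the vector. With the endothelial score as a covariate the counts for the tumour were 0 and 0. The count of falls with the vector was 4 without the libraries above 10000000 counts and ranged from 0 to 4 without 1 library. Arnt, the partner of hypoxia-inducible factors, rose by 0.37 ± 0.07 (edgeR adjusted p = 0.000248), Bnip3, a mitophagy receptor gene, by 1.36 ± 0.29 (edgeR adjusted p = 0.000865), and Egln3, an oxygen-sensing hydroxylase gene, fell by 0.94 ± 0.17 (edgeR adjusted p = 0.00015). With the vector Egln3 stood 0.44 ± 0.13 higher and Bnip3 0.65 ± 0.20 lower (edgeR adjusted p = 0.0439 and 0.0472), calls that 16 and 22 of 29 fits without 1 library lost. Of 15 tested endothelial transcription factor genes, 5 rose and 3 fell with the tumour (median 0.30), against the same 14.2% and 14% of all genes. Sox17 and Gata2 rose by 0.86 ± 0.17 and 0.69 ± 0.17 (edgeR adjusted p = 0.000448 and 0.00312), while Sox7 fell by 0.78 ± 0.17 (edgeR adjusted p = 0.00099). Gata2 and Sox7 did not pass without the libraries above 10000000 counts (edgeR adjusted p = 0.0528 and 0.08). The count of rises was 2 without PBS_GFP replicate 1 and 3 without C26_GFP replicate 7 or 10. With the vector Mef2c stood 0.27 ± 0.06 higher (edgeR adjusted p = 0.013) and Sox17 0.42 ± 0.12 lower (edgeR adjusted p = 0.0374), the latter lost in 10 of 29 fits without 1 library. Mef2c had fallen by 0.25 ± 0.08 with the tumour (edgeR adjusted p = 0.0168), a call lost without PBS_GFP replicate 1 (0.0553). Median log2 changes with the tumour and with the vector were -0.34 and 0.19 for cardiomyocyte markers and 0.24 and -0.08 for endothelial ones. Which cells carried the changes of Mef2c in these whole hearts was not tested. Without the libraries above 10000000 counts, the count of rises among these factors was 3 and of falls 1, and that of falls among the further ligands and co-receptors was 2.

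The pathway calls were also refitted with the endothelial score. That score had group means of 6.61 in PBS_GFP, 6.82 in C26_GFP and 6.74 in C26_REVERBa hearts, so it is not independent of the groups compared. With it as a covariate, 757 genes in all passed for the tumour effect in place of 3642, and 12 for the vector effect in place of 931. Of the 21 calls of named pathway genes for the tumour effect, 11 did not pass then, and none of the 11 for the vector effect did. Among the calls lost for the tumour effect, some changes were nearly kept, as for Hsp90aa1 (-0.51, and -0.52 without the covariate). Others shrank, as for Mef2c (-0.05, and -0.25 without it). Why these calls were lost was not tested. Nrp2, Plxnd1, Sema3f, Plcg1, Prkca, Ddah1, Apln, Aplnr and Cxcr4 passed for the tumour effect under every one of 41 alternative settings, that covariate included.

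**Figure D5:**
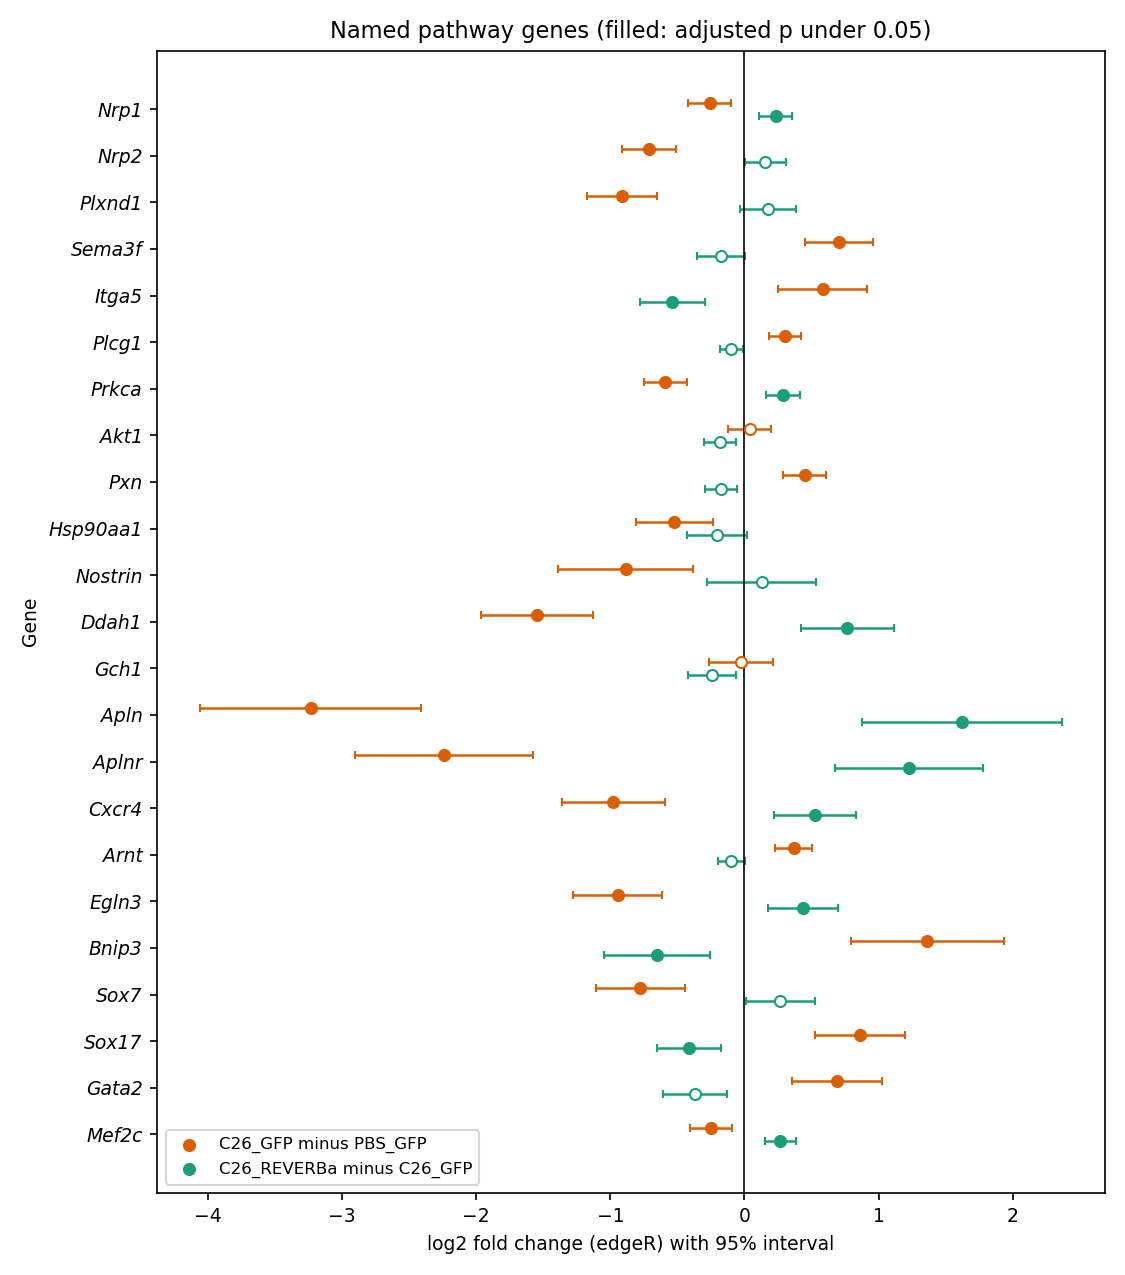
Log2 fold changes from edgeR (horizontal axis) with 95% intervals for the named genes of the 6 pathway lists, with the tumour under the GFP vector and with the REV-ERBα vector in tumour-bearing hearts, filled where the adjusted p is under 0.05. Nrp2 and Plxnd1 lie at -0.71 and -0.91 with the tumour and at 0.16 and 0.18, open points, with the vector.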

How the data were processed

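Total RNA of 29 hearts was sequenced as 50 bp paired-end reads, per the labels' protocols. Raw counts of reads for each RefSeq gene, with its counted length, are in 1 table that the authors deposited. Per the submitters' processing notes, mm10, STAR 2.4.2a and DESeq2 1.24.0 were used, with no roles stated. No source used here names the counting tool or its strand setting. One column that matched no sample was not used. Starts were raised by 1, since this matched the RefSeq start of 11362 among 20236 accessions, and the deposited start matched 722.

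The 10 genes and all lists were chosen with earlier results of these data known. Counts were fitted in R 4.3.3 with edgeR 4.0.16 (limma 3.58.1): filterByExpr (minimum count 10, total 15; 12928 of 20411 genes), TMM scaling and 1 quasi-likelihood model of the 4 groups in all 29 libraries. Genes passed at an adjusted p under 0.05. CPM used the same scaling, and RPKM divided it by counted length. The marker score is the mean of log2(CPM + 0.5). All 10 genes are named. From each pathway list the 3 smallest p of the tumour effect under GFP and the 2 smallest of the vector effect with a tumour are named, and for each gene the 3 highest r of log2 CPM (prior count 2). Ratios were tested by exact permutation over hearts. The procedure was run on counts simulated from the model's own fitted dispersions, with a small set of changed genes. Such a run cannot show how well the model fits these data. All 406 pairs of libraries differed by more than sampling noise (chi-square at least 2.73 per degree of freedom). Alternatives were RLE and upper quartile scaling, DESeq2 1.42.0, 2 other filters, only the compared groups, a replicate block, limma voom, library subsets, thinning, the endothelial score as a covariate, and each library left out. Those for pathway lists and ratios were added after the data were seen.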

Additional observations from a re-analysis of the deposited data

Results flagged for a closer look

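Vegfb in C26_GFP replicate 8, at 179 CPM, stood apart from the other 9 hearts of its group on the log2 scale, the next of which had 252 CPM. That gap was 0.536 of the group's range in log2 CPM, above Dixon's critical value for 10 samples, and 0.457 of the range in CPM, below it. It was the 1 case on the log2 scale among 40 groups examined (10 genes in 4 groups), where chance alone marks about 1 in 20. In CPM the 1 case was Angpt2 in C26_GFP replicate 3, at 5.01 CPM with the next heart at 3.22 CPM, a gap of 0.518 of the range in CPM and 0.378 in log2 CPM.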

How the results depend on the processing

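The replicate numbers did not pair the hearts, which came from separate animals (same-number pairs correlated above 0.1 in 8 of 32 cases, median r -0.08), and same-number libraries were only fitted as an alternative. Kdr kept its call in both tumour comparisons in all 41 alternatives, as did the Kdr to Flt1 ratio in those run. The tumour effect under GFP called 5 of the 10 genes, but 3 with the replicate block, 3 without libraries above 10000000 counts, 3 thinned to the smallest total (1 random draw) and 1 with the endothelial score as a covariate. Leaving out 1 library gave 4 to 5. Under the REV-ERBα vector 3 were called, 1 with the replicate block, 1 with the covariate, and 1 to 3 without 1 library. The other comparisons called 0 in every setting run, and the interaction has no fit with only the groups compared because it needs all 4. Over all genes the tumour effect under GFP called 3642, 2825 with the replicate block and 1972 without the large libraries, and the vector effect with a tumour called 931, 327 with only the groups compared, 291 with the replicate block and 462 when thinned. That count was 295 to 590 without C26_GFP replicate 1, 2, 7 or 10 or C26_REVERBa replicate 1, 3, 4, 7 or 10, 1723 without C26_GFP replicate 6 and 1778 without C26_REVERBa replicate 9. With the replicate block Tek (0.24) and Angpt2 (-0.63) lost their calls under GFP (edgeR adjusted p = 0.0647 and 0.144), and Flt1 (0.31) and Angpt2 (-0.84) under REV-ERBα (0.103 and 0.0998). Nostrin and Itga5 lost theirs under GFP (edgeR adjusted p = 0.0677 and 0.0578), as did Nrp1 (0.0542) and Mef2c (0.0604). Of the 11 named pathway calls for the vector effect, 6 were lost with that block (Nrp1, Apln, Cxcr4, Egln3, Bnip3 and Sox17).

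Signs turned only for genes that had not passed, and the cause was not tested. For the vector effect with a tumour, Tek was 0.0056 with upper quartile scaling, 0.032 without large libraries, 0.025 thinned and 0.0068 with the covariate. Angpt2 was 0.0050 by limma voom and 0.28 without high atrial libraries, Tie1 0.038 without these and 0.038 with the covariate, Flt4 0.021 thinned and 0.023 with the covariate, and Vegfb -0.049 with the covariate. For the tumour effect under REV-ERBα, Angpt1 was 0.21 by limma voom, 0.23 without high atrial libraries and 0.043 with the covariate, Nos3 0.038 thinned, and Tie1 -0.054 with the covariate. Under GFP, Flt4 was -0.073 and Nos3 -0.0083 with the covariate. The interaction of Kdr was 0.0045 with upper quartile scaling, 0.058 without large libraries, 0.046 without high atrial ones, 0.040 thinned and 0.033 with the covariate. Without 1 library it ranged from -0.094 to 0.054. The same range was -0.029 to 0.084 for Kdr, -0.046 to 0.016 for Tek, -0.11 to 0.12 for Angpt2 and -0.041 to 0.069 for Vegfb in the vector effect with a tumour. It was -0.22 to 0.47 for Angpt1, -0.070 to 0.047 for Nos3 and -0.015 to 0.040 for Tie1 in the tumour effect under REV-ERBα, and -0.00084 to 0.21 for Flt4 under GFP. Angpt2 had 6 to 61 counts per library, and it and Tek lost their calls under GFP when thinned.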
